A study of Mus musculus with 8 samples.

Results

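Mouse cortical neurons in culture carried 1183 regions of open chromatin that had a peak in unstimulated wild-type neurons and in unstimulated Brg1-deleted neurons, and no peak in neurons of either genotype after 1 h of KCl. They were selected on the authors' peak calls: the peaks of 4 deposited lists were merged wherever they overlapped by at least 1 bp on chromosomes 1 to 19, and a merged region was kept when both basal lists, but neither of the KCl lists, had a peak there. They are 1183 of 60611 merged regions, or 1.95%. The neurons came from E16.5 embryos and were compared by ATAC-seq, in which the transposase Tn5 cuts accessible DNA. Wild-type neurons (WT) and neurons of genotype BAF53bCre Brg1F/F (cKO) were each sampled without KCl (basal) and after 50 mM KCl for 1 h on day 6 in culture (KCl). TTX at 1 µM and APV at 100 µM, which block sodium channels and NMDA receptors, were given on day 5 to the cultures to be depolarised; whether the basal cultures received them is not stated. In the cKO neurons floxed Brg1 is deleted by a Cre carried on BAF53b sequences, a neuronal subunit gene of the same complex, and the peak lists do not measure how much Brg1 remained. Each condition had 2 libraries of 50000 cells, sequenced to 60 M reads each by the labels, and 1 peak list, so presence in a list was not replicated, and the comparisons below have no test between conditions.

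Brg1, encoded by Smarca4, is an ATPase of the BAF (SWI/SNF) chromatin remodelling complexes, which slide or evict nucleosomes and so expose DNA at promoters and enhancers. Raised KCl depolarises the membrane, voltage-gated calcium channels open, and the calcium that enters switches on a rapid response of genes such as Fos, Fosb and Nr4a1, followed by a delayed response.

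By their basal folds the regions sat mostly near or below the middle of their lists, and a minority lay on promoters. To show the promoter DNA itself, the 250 bases before the start of 6 genes are printed here. These are the 6 with the strongest regions of 12 protein-coding genes that had both basal summits inside those bases and no annotated gene body across them. The sequences are from RefSeq, GRCm38.p6, read 5′ to 3′ on the gene's strand, and capitals mark the letters of 12 motifs searched on both strands. They were GGGCGG (the GC box), CCAAT (NF-Y), TGACGTCA (the full cAMP response element), TGANTCA (AP-1), CCGGAAGT (ETS factors), AAGATGGC (YY1), the NRF1 motif, the BANP motif, GCGGGGGCG (Egr factors, which can overlap the GC box), the E-boxes CATCTG and CAGCTG, and the TATA box TATAAA.
Eid2: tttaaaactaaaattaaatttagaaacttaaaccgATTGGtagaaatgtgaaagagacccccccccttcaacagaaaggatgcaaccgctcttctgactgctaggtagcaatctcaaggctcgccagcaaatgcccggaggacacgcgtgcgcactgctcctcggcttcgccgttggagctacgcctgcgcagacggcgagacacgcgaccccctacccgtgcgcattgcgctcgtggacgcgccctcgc
Supt4a: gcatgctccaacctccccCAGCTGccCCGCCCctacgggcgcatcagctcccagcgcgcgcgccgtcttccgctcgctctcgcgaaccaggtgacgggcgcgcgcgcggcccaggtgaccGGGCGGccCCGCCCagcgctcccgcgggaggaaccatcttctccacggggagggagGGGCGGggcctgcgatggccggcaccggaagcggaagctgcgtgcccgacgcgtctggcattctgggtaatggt
Gins3: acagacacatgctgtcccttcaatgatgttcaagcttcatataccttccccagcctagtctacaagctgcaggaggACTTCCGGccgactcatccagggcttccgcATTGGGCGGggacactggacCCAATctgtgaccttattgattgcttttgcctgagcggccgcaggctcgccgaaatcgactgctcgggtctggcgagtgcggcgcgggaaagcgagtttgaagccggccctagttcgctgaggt
Nt5dc2: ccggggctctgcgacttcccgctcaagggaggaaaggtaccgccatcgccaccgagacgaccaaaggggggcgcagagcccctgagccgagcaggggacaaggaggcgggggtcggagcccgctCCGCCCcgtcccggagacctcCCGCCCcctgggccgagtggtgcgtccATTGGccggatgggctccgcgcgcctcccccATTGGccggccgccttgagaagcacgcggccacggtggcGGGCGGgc
Tomm5: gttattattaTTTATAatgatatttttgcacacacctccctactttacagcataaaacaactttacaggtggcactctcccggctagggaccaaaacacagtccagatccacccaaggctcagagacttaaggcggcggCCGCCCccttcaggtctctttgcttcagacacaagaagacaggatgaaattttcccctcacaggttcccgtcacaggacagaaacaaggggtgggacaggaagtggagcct
Mif: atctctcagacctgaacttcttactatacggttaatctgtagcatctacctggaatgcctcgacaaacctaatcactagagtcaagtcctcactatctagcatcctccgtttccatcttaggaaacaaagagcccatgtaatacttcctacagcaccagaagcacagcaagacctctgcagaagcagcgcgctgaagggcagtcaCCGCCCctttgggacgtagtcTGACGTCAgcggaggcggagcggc

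The Eid2 sequence lies at chr7:28267631-28267880 on the plus strand, and the peak summits stood 2 and 47 bases before the start in WT and cKO, with folds over background of 3.55 and 3.34. Eid2, an inhibitor of differentiation, had the strongest region of the 6 by the lower of its 2 folds. Supt4a, at chr11:87737301-87737550 on the plus strand, encodes a subunit of an elongation factor of RNA polymerase II, and its folds were 3.32 and 3.20. Gins3, at chr8:95633309-95633558 on the plus strand, encodes a subunit of the replicative helicase complex, and its folds were 3.11 in WT and 3.82 in cKO. Nt5dc2 lies at chr14:31130839-31131088 on the plus strand, with folds of 3.04 and 3.16. Tomm5, at chr4:45108114-45108363 on the minus strand, encodes a subunit of the mitochondrial import pore, and its folds were 3.01 in WT and 3.92 in cKO. Mif, at chr10:75860278-75860527 on the minus strand, encodes a cytokine, and its folds were 3.02 and 2.94. The Mif window was the single one of 182 promoter windows under the regions that held TGACGTCA, the full cAMP response element bound by CREB.

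By the basal values they were chosen by, the 1183 regions sat in the lower and middle part of both lists. The fold over background in WT basal ran from 1.53 to 4.77 with a median of 2.75, and in cKO basal from 1.51 to 4.01 with a median of 2.76. The median over all peaks of the WT basal list was 2.82, and that of the cKO basal list 2.88. Most regions were thus near or below the middle of each list, and 483 were below both medians while 214 were above both. Among the 10% of peaks with the highest fold there were 3 of them in WT basal and 0 in cKO basal. Their median pileup, the number of fragments stacked at the summit as solved from the deposited fold and p, was 31 in WT and 30 in cKO, and their merged width had a median of 370 bp. Neither genotype was the stronger throughout: the fold was higher in WT for 612 regions and in cKO for 570. The summits of the 2 basal peaks lay a median of 83 bp apart (quartiles 38 and 158 bp). Regions found in exactly 2 lists in other pairings were alike. Their median WT basal fold was 2.78 for both WT lists and 2.83 for WT basal with cKO KCl. Their median cKO basal fold was 2.76 for both cKO lists and 2.71 for WT KCl with cKO basal. Over the other 5 pairings the median merged width was 357 to 375 bp and the median summit distance 65 to 87 bp.

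**Figure D1:**
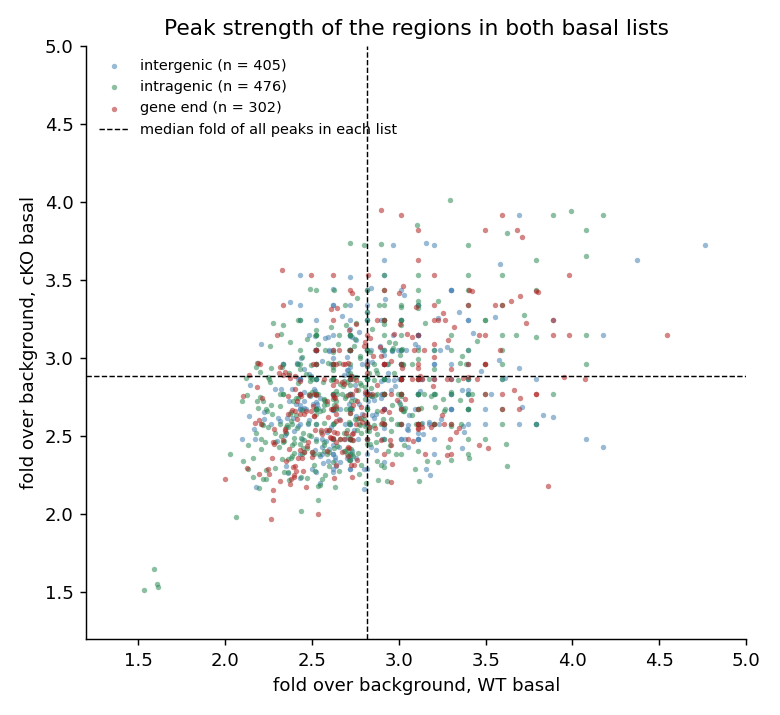
Fold over background in WT basal (x axis) against cKO basal (y axis) for each of the 1183 regions, coloured by position, with the median fold of all peaks in each list as dashed lines. Most points lie below a fold of 4 on both axes, and the 4 points near 1.5 are the regions in Sfi1 and Cwc22, where the background was high.

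By the lower of its 2 folds, the strongest region at a gene end belonged to Elovl4, an elongase of very long chain fatty acids, at chr9:83805192-83805424, with folds of 3.71 in WT and 3.78 in cKO and 40 fragments in each. Its summits were 6 bp apart, and KCl peaks lay 281 bp away in cKO and 569 bp away in WT. Pigk (GPI transamidase) at chr3:152714009-152714489 had folds of 3.68 and 3.82, with 38 and 39 fragments. In contrast to Elovl4, its nearest KCl peaks were 31227 bp away in WT and 43154 bp away in cKO. Nav3, a neuron navigator protein that binds microtubules, had folds of 3.59 and 3.92 at chr10:110455055-110455351, and Taok1, a kinase that acts on microtubules and MAP kinases, had 3.98 and 3.53 at chr11:77624460-77624724. Spry1, an inhibitor of receptor tyrosine kinase signalling, had 3.80 and 3.43 at chr3:37640689-37641174, with a WT KCl peak 127 bp away. Syne2 (nesprin-2, a nuclear envelope protein) had 3.65 and 3.37, and Gatm, the first enzyme of creatine synthesis, had 3.59 and 3.34. The first 12 by the lower fold also held Scrg1, Ubxn11, Lyrm9, Ube2d2a and Eme1. Elovl4, Nav3, Spry1, Ube2d2a and Syne2 had a KCl peak within 1 kb, and the others of the 12 did not.

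By the same measure, the strongest region away from gene ends lay in Arhgap26, which encodes a GTPase-activating protein, at chr18:39329023-39329294, with folds of 3.99 and 3.94 and 43 and 42 fragments. Hipk2, a nuclear kinase, held one at chr6:38840423-38840777 with folds of 4.18 and 3.92, and the nearest KCl peaks were 35082 bp away in WT and 35401 bp away in cKO. The highest WT fold of all, 4.77, was 6.72 kb from Arl4d, a small GTPase of the ARF family, at chr11:101658486-101658825, where the cKO fold was 3.72. A region 456 kb from its nearest gene, Nova1 (a neuronal splicing regulator), had 4.37 and 3.63 at chr12:47275932-47276299. A region inside Magi2, a synaptic scaffold gene, had 3.79 and 3.63. Net1, which encodes a guanine nucleotide exchange factor, and Tor1aip2 had 3.59 and 3.53, and 3.62 and 3.80. These 2 regions are away from the gene's outer ends but overlie the promoter window of an internal RefSeq start, with summits 0 and 46 bases after it in Net1, and 10 and 4 bases before it in Tor1aip2. The others of the first 12 lay in Cfhr3, Dnajc12 and Mrps27, and nearest to Gm9222 and Gm2244. These 24 named regions differed widely in how close a KCl peak lay, from 127 bp at Spry1 to 455906 bp at the region nearest Nova1.

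The distance to the nearest KCl peak was measured next. Of the 1183 regions, 46 had a KCl peak of either genotype within 100 bp, 160 within 500 bp and 211 (17.8%) within 1 kb, and the median distance was 10935 bp. The opposite kind, 814 regions called in the 2 KCl lists alone, gave values of the same size for their distance to basal peaks: 157 (19.3%) had one within 1 kb, with a median of 8779.5 bp. At the edge of the rule, Ccdc40 and Lrrk1 each held a region 3 bp from a WT KCl peak, and Tnpo3, a nuclear import receptor, had one 6 bp from a cKO KCl peak. In the authors' deposited table, the weakest of the regions by −log10 q lay in Rab7b (1.42 in WT, 2.36 in cKO), at Tlx2 (4.50 and 1.51) and in Mmp25 (2.93 and 1.57). Just outside the rule was Arc, the activity-regulated gene of dendrites: in the authors' deposited table its gene-end region had −log10 q of 4.25 in WT basal and 2.70 in cKO basal, and it was left out for a cKO KCl peak at 1.62. Hhat (WT KCl peak at 1.62 in the authors' deposited table) and the region near Slc36a4 (cKO KCl peak at 1.73) were left out in the same way.

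Depth limits how firmly a missing peak can be read. In 392 regions the local background was at the list's floor in both basal lists, and there the median pileup was 29 fragments in each. Scaled to the KCl lists by the ratio of floors, 29 becomes 25.7 in WT and 25.6 in cKO, while the lowest pileup called at the floor in either KCl list was 20. The scaled pileup was at or above that lowest value for 391 of the 392 regions in WT and for 392 in cKO. The exact Poisson interval of a basal count of 29, before scaling, is 19.4 to 41.6. In 26 regions the lower Poisson bounds of both genotypes, once scaled, were at or above the lowest called pileup. The lists give no pileup where no peak was called, so the KCl level at these regions was not measured.

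The number of regions was of the size that the other pairings of lists gave. Both KCl lists alone shared 814 regions (1.34% of all), both WT lists 1131 (1.87%), both cKO lists 776 (1.28%), WT basal with cKO KCl 2301 (3.8%) and WT KCl with cKO basal 424 (0.7%). The WT lists hold 33328 peaks before KCl and 19847 after it, the cKO lists 19921 and 24947, and the pairing of the 2 longest lists gave the most regions. Taking together the 2 pairs of each split of the 4 lists, the geometric mean was 981 for basal against KCl, 937 for WT against cKO and 988 for the crossed pairs, which share neither genotype nor treatment. Of the 10059 regions with a peak in both basal lists 11.8% lacked both KCl peaks, against 2301 of 12110 for the crossed pair of WT basal and cKO KCl, and 5.11% for the other crossed pair.

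**Figure D2:**
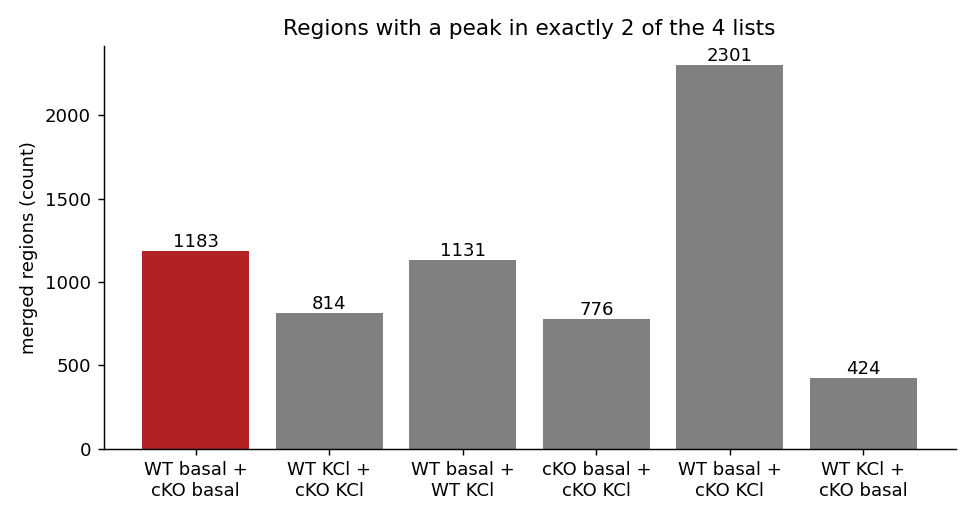
Number of merged regions (bar height) with a peak in exactly 2 of the 4 lists, by pair. The pair of both basal lists (1183, red) lies between the crossed pairs of 2301 and 424.

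Most regions lay away from gene ends. Within 1 kb of either end of a protein-coding gene were 302 of the 1183, or 25.5% (exact Clopper-Pearson 95% interval 23.1 to 28.1, as for the intervals below, which cover counting error only). Inside genes but away from their ends were 476 (40.2%), and 405 (34.2%) were between genes. The gene-end share was 38.1% for the regions of both KCl lists, 27.5 to 32.5% for the other 4 pairs and 75.8% for the 7043 regions with a peak in all 4 lists. A promoter window, the 250 bases before to 50 after a RefSeq start, lay under 150 of the 1143 regions outside chromosome 18, which the promoter table leaves out. That is 13.1% (11.2 to 15.2), against 17.3 to 26.1% in the other 5 pairs and 70.0% in all 4 lists. Genes with an intragenic region were long, with a median of 91.3 kb against 17.5 kb for all protein-coding genes. A longer gene offers more room for a region, and this length is not given for the other pairs. Of the intergenic regions 97 were over 100 kb from a gene. The annotation used gives the ends of genes and not exons, so exonic, intronic and UTR positions are not given.

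The share without a KCl peak was highest among weak basal peaks and peaks away from gene ends. All 10059 regions of the 2 basal lists were ranked by the lower of their 2 folds and divided into 5 equal bins. The share with no KCl peak was 32.9% in the lowest bin, then 18.3%, 5.97% and 1.59%, and 0 of 2012 in the highest, where the exact interval reaches 0.183%. Strength is part of the rule's own measure, so that order is a description. Position is not part of the rule. In the lowest bin 18.3% of gene-end regions (15.8 to 21.0) lacked both KCl peaks, against 43.6% of intragenic (39.7 to 47.5) and 46.3% of intergenic ones (41.7 to 50.9). In the next bin the shares were 8.11%, 27.2% and 34.8%, and in the middle one 2.54%, 10.9% and 15.4%. In the fourth bin they were 0.925%, 4.49% and 2.14%, with the intragenic share above the intergenic one. These rest on 14, 14 and 4 regions, and the gene-end interval (0.507 to 1.55) overlaps the intergenic one (0.586 to 5.39). Gene ends thus had the lowest share in each of the first 4 bins, and this difference was not tested. Gene ends were also lower in other pairs: of the regions shared by the 2 KCl lists, 4.70% at gene ends and 18.9% between genes lacked both basal peaks, and for the crossed pair of WT basal and cKO KCl the shares were 8.96% and 37.3%.

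**Figure D3:**
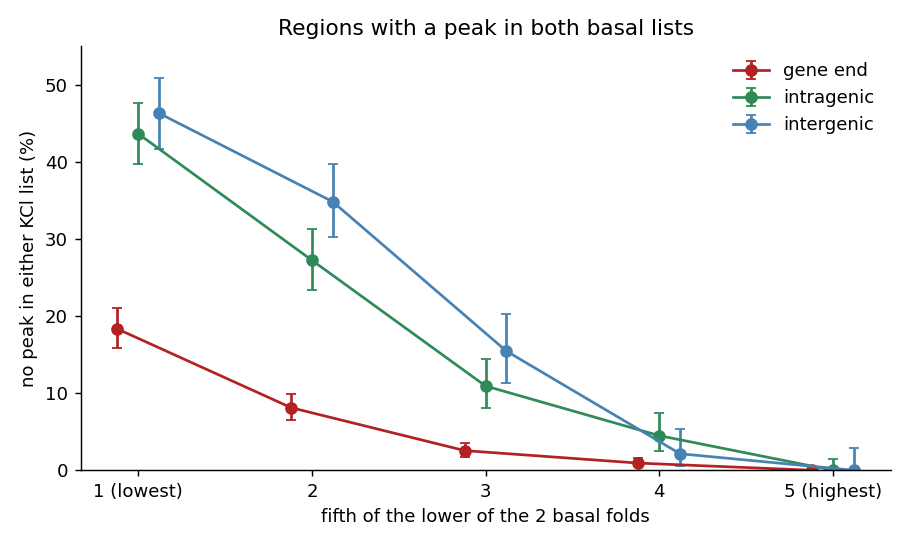
Share of regions with a peak in both basal lists that had no peak in either KCl list (y axis, %), in 5 equal bins of the lower basal fold (x axis) and by position, with exact 95% intervals for counting error. The gene-end points lie below the intragenic and intergenic points in each of the first 4 bins, and in the highest bin the 3 classes are at 0.

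Around gene starts most regions lay on the transcribed side. The mean of the 2 basal summits was within 1 kb of the nearest start of a protein-coding gene for 207 regions, and 45 of them were upstream and 162 downstream of it, in the direction of transcription. The upstream share of 21.7% (16.3 to 28.0) was lower than in each of the other 5 pairs, where it was 36.3 to 43.1% and the intervals began at 28.5% or above. It was 33.1 to 34.8% for the peaks found in 1 list and 62.5% (61.1 to 63.9) for the regions in all 4 lists. The bin with the most regions was the first 100 bp after the start, with 44 of 207 (21.3%), and the bin before the start held 22 (10.6%). For the regions of both KCl lists these bins held 21.3% and 28.3%. The median position was 128 bp after the start, against 20.3 bp after it for the KCl pair and 33.3 bp before it for the regions in all 4 lists. With a single list per condition no test was run on this difference.

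**Figure D4:**
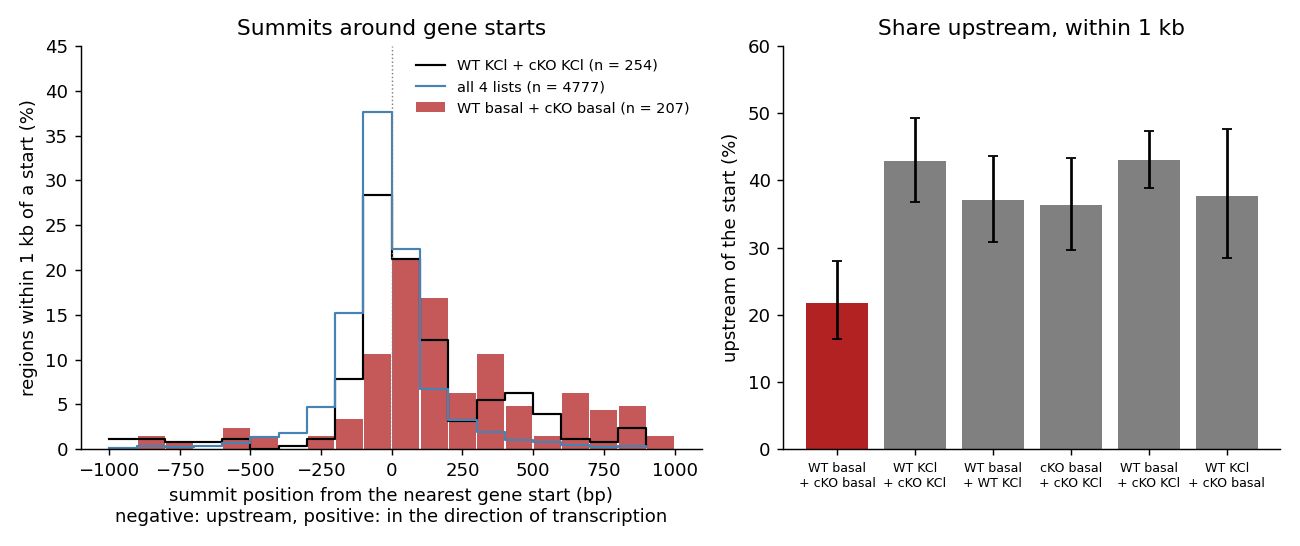
Left, position of the summit relative to the nearest gene start (x axis, bp, in 100-bp bins) as a percentage of the regions within 1 kb of a start (y axis), for the regions of both basal lists (red, n = 207), of both KCl lists (black, n = 254) and of all 4 lists (blue, n = 4777). Right, share of regions upstream of the start for each pair of lists with exact 95% intervals for counting error. The pair of both basal lists has the lowest share, 21.7%.

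The upstream share was then measured in other ways. Using the WT summit alone it was 27.8% (21.8 to 34.3), and using the cKO summit alone 24.0% (18.4 to 30.4), and both intervals overlap those of some other pairs. The shares of the other pairs use the mean of their 2 summits, so the measures differ here. For the 139 regions with no KCl peak within 1 kb it was 20.1% (13.8 to 27.8), and for the 68 with one it was 17 of 68 (15.3 to 37.0%). The intervals of these 2 subsets overlap. With equal list lengths the share was 25.7% (19.4 to 33.0), and its interval overlapped those of WT KCl with cKO basal, at 33.9% (26.9 to 41.5), and of both cKO lists, at 38.1% (32.1 to 44.4). With an overlap of 50% of the shorter peak it was 23.8% (18.2 to 30.2), and its interval again overlapped those of the same 2 pairs, at 34.3% (25.4 to 44.0) and 35.9% (29.4 to 42.9).

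Promoters under the regions were rich in GC and CpG, with values between those of all promoters and of promoters open in all 4 lists. The 182 windows belonged to 171 genes, and had a median GC content of 60.5% and a median ratio of observed to expected CpG of 0.728. All 31396 windows in the table had medians of 53.0% and 0.389, and the windows under regions of all 4 lists 65.0% and 0.844. GGGCGG, the GC box bound by Sp1, was in 59.9% (52.4 to 67.1) of the 182, against 36.0% of all windows and 76.0% of those open in all 4 lists. CCAAT, bound by NF-Y, was in 30.2% (23.6 to 37.5), against 37.3% and 43.0%. TGACGTCA was in 1 of 182, or 0.549% (0.0139 to 3.02), against 1.83% of all windows and 3.87% of those open in all 4 lists. In the other 5 pairs the share with TGACGTCA was 1.06 to 4.81%, that with GGGCGG 58.4 to 66.7%, and the median GC content 60.3 to 62.2%. TGANTCA, the AP-1 site of Fos and Jun, was in 3.85% (1.56 to 7.76), against 7.84% of all windows and 3.04% of those open in all 4 lists. CCGGAAGT, an ETS site, was in 4.40%, against 3.95% and 9.54%. A match is a description of letters and not of binding, and with 182 windows the intervals are wide for the rare motifs. The 182 windows lie under 150 regions, and some overlap or are identical. They are therefore not independent, and the intervals may be too narrow.

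Of the genes with a region over a promoter window, 6 are described here that were chosen after their values were seen, and they stand for no group. Lhx2, a homeobox gene of cortical patterning, had folds of 2.90 in WT and 2.66 in cKO, with summits 41 and 94 bases after the start. Msx1, a homeobox gene of dorsal patterning, had 2.64 and 2.97 with summits 37 and 79 bases before it. Gli3, an effector of hedgehog signalling, had 3.67 and 2.80, with summits 321 and 8 bases after the start. Nab2, a co-repressor of the Egr factors that activity induces, had folds of 2.33 in WT and 3.56 in cKO, and its summits were 9 and 23 bases after the start. Mef2b, of the MEF2 family, had 2.55 and 2.54, and Mettl3, the RNA adenosine methyltransferase, had 3.21 and 2.58. The Gli3 region was 119 bp from a KCl peak, and the regions of the others were 5653 bp (Mef2b) to 50574 bp (Msx1) from one.

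Genes near the regions were taken next, with a region counted as near when it lay within 50 kb. Such a region can overlie the promoter of another gene, and the same region can count for neighbouring genes. Of 20665 protein-coding genes, 2357 (11.4%) had a region within 50 kb and 792 (3.83%) had one in the body or within 1 kb of an end. Over 377 genes of 22 lists on neuronal activity, synapses, chromatin and cell types the counts were 65 (17.2%) and 32 (8.49%). The listed genes are longer, with a median of 32.5 kb, and a longer gene offers more room, and no comparison between the shares is drawn. Markers of excitatory neurons had an open gene end for 12 and 9 of 21 genes in WT neurons before and after KCl, and for 12 and 11 in cKO neurons, and inhibitory neuron markers for 9 and 6 of 18, and for 5 and 10. In the same order of conditions the counts were 12, 9, 10 and 14 of 18 for neural progenitors, 8, 5, 4 and 5 of 12 for astrocytes, 5, 3, 4 and 3 of 11 for oligodendrocytes, 1, 0, 0 and 1 of 12 for microglia and 3, 1, 4 and 4 of 12 for vascular cells. Progenitor and astrocyte genes had open ends too. The share of all protein-coding genes with an open end is not given beside these counts, and the lists differ in length. The counts are therefore not read as a result about cell types, and how much other cell types contributed was not tested.

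The genes that activity switches on were counted in the same way. Of 20 rapid response genes 2 had one within 50 kb and none had one in the gene. Over all protein-coding genes the shares were 11.4% and 3.83%. Nr4a1, an orphan nuclear receptor, had a region 2.67 kb beyond the gene at chr15:101277466-101277924, with folds of 3.89 in WT and 2.62 in cKO, and Fosb, a partner of Jun in AP-1, had one 39.2 kb away with folds of 2.16 and 2.36. Of 20 delayed response genes there were 2, Per1 at 49.2 kb and Nr4a3 at 38.4 kb. The Nr4a3 region overlies a promoter window of Stx17, and the Per1 region is also the one counted for Vamp2 below. Of 21 activity signalling genes there were 5. Hdac9, a class IIa histone deacetylase, held one inside the gene (2.53 and 3.44), Srf had one 6.83 kb away (3.28 and 2.38), and those of Hdac5, Crtc2 and Mef2d were 10.5, 40.0 and 49.4 kb away. The Crtc2 region overlies promoter windows of Rab13 and Rps27. A KCl peak lay 0.655 kb from the Srf region and 0.12 kb from that of Mef2d. For Hdac9, Hdac5 and Crtc2 the distances were 10.7, 28.2 and 17.6 kb.

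Ion channel and receptor genes followed, with 0 to 2 genes a list near a region. None of 15 calcium channel genes, with a median length of 248 kb, had a region within 50 kb. The share over all protein-coding genes was 11.4%, and in a list of 15 genes a count of 0 is not read as an absence. Of 19 potassium and sodium channel genes 2 had one, among them Kcnd3, a subunit of A-type potassium channels, with folds of 2.64 and 2.64. Of 20 glutamate receptor genes 2 were near a region. Grin2b, the NMDA receptor subunit GluN2B, held 2 regions at chr6:136147494-136147842 (3.01 and 3.21) and chr6:136150136-136150379 (3.72 and 3.28), 25.8 and 23.2 kb from one end of the gene, and Grid1 held 1. Of 11 GABA-A receptor genes, Gabrd, the extrasynaptic delta subunit, had one at a gene end with 2.76 and 2.35.

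Of 14 postsynaptic scaffold genes 5 (35.7%) had a region within 50 kb and 4 in the gene, with a median gene length of 129 kb. Over all protein-coding genes the shares were 11.4% and 3.83%, with a median length of 17.5 kb. The lengths differ, so the scaffold counts are not read as a result about these genes. Dlgap2, a protein of the postsynaptic density, held 2, with folds of 3.21 and 3.06 at chr8:14132852-14133129, and 2.72 and 2.86 at chr8:14192093-14192465. In the whole Dlgap2 gene 19 regions had a WT basal peak and 3 a WT KCl peak, while 7 had a cKO basal peak and 9 a cKO KCl peak. The 2 regions chosen by the rule are part of both basal counts and of neither KCl count. Dlg1 (SAP97) had 3.59 in WT and 2.58 in cKO, Dlgap1 had 3.11 and 2.77, Shank2 had 2.35 and 2.34 at a gene end, and Shank3 had 2 regions outside the gene, the nearer at 16.6 kb. The Shank2 region was 0.305 kb from a KCl peak, and the other scaffold regions were 6.30 to 81.6 kb from one. Of 14 presynaptic genes there were 3 (Unc13a, Vamp2 and Cplx2), of 14 adhesion genes 3 (among them Nrxn3 and Nlgn1), and of 24 axon guidance genes 2 (Ntn1 and Plxna2). Netrin-1, encoded by Ntn1, held 2 regions, and its gene had 7 regions with a peak in WT basal and 1 in WT KCl, against 4 and 1 in the cKO lists. Other listed genes differed from this. Plxna2 had 4 and 6 in the WT lists and 3 and 5 in the cKO lists, Nlgn1 had 2 and 3, and 1 and 1. Grid1 had 9 and 7, and 8 and 7. Such counts are given for a few genes and stand for no group.

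Among transcription factors of cortical excitatory neurons 6 of 21 had a region within 50 kb. The share over all protein-coding genes was 11.4%, and no comparison is drawn. Sox5, a factor of deep-layer neurons, held 2, with folds of 3.30 and 2.77 at chr6:144738117-144738413 and of 2.57 and 2.86 near its start, and its gene had 20 regions with a peak in WT basal and 6 in WT KCl, against 5 and 9 in the cKO lists. Bcl11b (Ctip2) had 2.57 and 2.40, Foxp2 had 3.11 and 2.55 at a gene end, and Bhlhe22 had 3.05 and 2.48 at a gene end. Pou3f3 had one 10.6 kb away at 3.69 and 2.94, and Nfix one 13.4 kb away at 2.48 and 2.46. Of 18 inhibitory neuron genes there was 1, Nxph1, with 3.00 and 3.42 over its start.

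Of 27 genes for subunits of the BAF complex, 6 (22.2%) had one within 50 kb and 3 in the gene. Over all protein-coding genes the shares were 11.4% and 3.83%. The BAF genes have a median length of 31.4 kb, against 17.5 kb for all, and their counts are not read as a result about the complex. Arid1b, which encodes a DNA-binding subunit, held 4 regions, the most of any gene, over its 353 kb. They lay at chr17:4996131-4996486 (folds 3.11 and 2.21), chr17:5057414-5057762 (2.32 and 2.50), chr17:5284828-5285073 (2.65 and 3.09) and chr17:5295823-5296136 (2.22 and 2.57). The first was 0.163 kb from a KCl peak, and the others were 4.99 to 23.0 kb from one. In all, Arid1b had 13 regions with a WT basal peak, 6 with a WT KCl peak, 13 with a cKO basal peak and 11 with a cKO KCl peak. The 4 regions chosen by the rule are part of both basal counts and of neither KCl count, as are those of Dlgap2, Ntn1 and Sox5 above, and the lists differ in length, with 32640 and 19258 merged regions for WT before and after KCl and 19326 and 24325 for cKO. Bcl11a held 1 (3.21 and 2.93) and Bcl7a 1 (2.32 and 2.77), and Smarcb1 had 2 at 35.7 and 36.3 kb. Of these, the farther is the Mif promoter printed above, and the nearer overlies a promoter window of Gm40697. The region near Pbrm1 is the Nt5dc2 promoter printed above.

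Genes of other lineages were near the regions too. Of 23 developmental genes listed as silent in cortex 7 had one within 50 kb and 5 in the gene. Among the 5 were Gata4 (2.62 and 2.74), Pax1 (3.11 and 3.06), Foxa2 (2.42 and 2.36) and Cdx2 (2.38 and 2.67), which pattern heart, skeleton, endoderm and gut. Over all protein-coding genes the shares were 11.4% and 3.83%. This list has a median length of 6.35 kb, against 17.5 kb for all genes. Expression was not measured here, and an open gene end was called for 8 and 2 of the 23 in WT before and after KCl. In cKO the counts were 5 and 4. Of 11 oligodendrocyte genes 4 were near one (Olig1, Pdgfra, Mog and Myrf), of 12 astrocyte genes 2, with Sox9 at a gene end (2.64 and 2.86), of 18 progenitor genes 3, of 17 cell cycle genes 2, of 12 microglial genes 2 and of 12 vascular genes 1. The Sox9 region was 0.365 kb from a KCl peak, and that of the other astrocyte gene, Aqp4, was 45.3 kb from one. The Myrf region overlies promoter windows of Fen1 and Tmem258. The same region is counted for the microglial gene Csf1r and, inside the gene, for the vascular gene Pdgfrb. Of 14 housekeeping genes 4 had one within 50 kb and none had one in the gene. Shares in lists of 11 to 27 genes move by several percent with a single gene, and none of these counts is read as a result about its list.

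The regions were scattered singly. When neighbours within 20 kb were grouped, 1116 regions stood alone, 29 groups held 2 and 3 groups held 3. One group of 3 lay at and before Prr5, a subunit of mTOR complex 2, another at Slc27a1, a fatty acid transporter, and Pgls, and the other at Lrrc4b, a synaptic adhesion protein, and Gm39002. By chromosome the regions were 1.66% (chromosome 16) to 2.47% (chromosome 15) of all merged regions. A gene with 2 or more regions was rare: 29 genes held 2, Cwc22 and Tmem132c held 3, and Arid1b held 4. The 3 regions in Cwc22 and 1 in Sfi1 stood on a local background of 67.6 to 92.9 fragments, with folds of 1.51 to 1.65, whereas the median background was 9.96 in WT and 9.80 in cKO. Near a microRNA hairpin there were 3, of which 1 was 930 bp from Mir125b-1, with folds of 3.21 and 3.72.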

How the data were processed

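The data are ATAC-seq peak lists from 4 conditions of cultured mouse cortical neurons, WT and cKO (BAF53bCre Brg1F/F), basal and after KCl, with 2 libraries per condition and 75-bp paired reads, per the labels' protocols. Each condition had 1 deposited list of nucleosome-free peaks; how the 2 libraries were combined is not given in the sources used here. Bowtie2, MACS2, GRCm38 and mm10 are named in the submitters' processing notes, with versions not given in the sources used here. In the deposited lists each peak has a score, a fold over background (a ratio), a −log10 p, a −log10 q and a summit distance from its start, all as the authors' peak caller wrote them.

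Peaks were merged by overlap of at least 1 bp on chromosomes 1 to 19 with Python 3.11.15, pandas 2.3.3 and SciPy 1.17.1. Whole-number pileups and backgrounds were solved from the fold, read as (pileup + 1) / (background + 1), and the Poisson p, and fitted 100% of peaks within 0.001. The script was tested on simulated data. Gene ends and starts came from RefSeq tables of GRCm38.p6, and 388 of 389 listed symbols matched; starts and promoter windows leave out chromosome 18, and 16457 of 20665 protein-coding genes have a window. Gene end means within 1 kb of either end. With 1 list per condition no test was run. Intervals are exact (Clopper-Pearson or Poisson, 95%). Regions were named by the lower of the 2 folds (the first 12 at gene ends and the first 12 away), by the edges of the rule, by listed genes, and by groups of 3; others are said to be chosen after their values were seen. The regions, gene lists and named sets were chosen with earlier results of these data known. Results for a few genes are not reported here.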

Additional observations from a re-analysis of the deposited data

How the results depend on the processing

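No paired analysis was possible because each condition has 1 list and no replicate columns, and leaving out a replicate could not be done for the same reason. The 1183 regions became 726 when each list was cut to the 20229 peaks of the shortest, and 717 when −log10 q of at least 3 was asked of the basal lists alone, which was chosen after seeing the data. Under the other 6 settings the count was 837 to 1313. At equal list lengths the geometric means were 791 for basal against KCl, 760 for WT against cKO and 857 for the crossed pairs. The gene-end share of 25.5% was 19.4% within 500 bp, 39.1% within 5 kb, 34.7% with all annotated genes, 30.1% at −log10 q of at least 3 and 31.4% at equal lengths; with peaks up to 200 or 1000 bp apart merged it was 22.6% and 20.3%. Of the listed genes 65 became 37 within 10 kb, and 96 within 100 kb. The median summit distance of 83 bp was 68 bp with an overlap of 50% of the shorter peak, 75.5 bp at equal lengths, and 101 and 148 bp with peaks merged across 200 and 1000 bp. The median lower fold of 2.60 was 2.77 at −log10 q of at least 3, 2.77 at equal lengths and 2.76 with that limit in the basal lists alone. The upstream share near starts stayed between 20.1% and 27.8% under 13 settings, all chosen after seeing the data. The cause of these shifts was not tested, beyond that stricter limits leave fewer peaks and wider merging joins more.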

Other observations

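With chromosomes X and Y included, the same rule kept 1217 of 62023 merged regions.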
